A study of Mus musculus with 133 samples.

Results

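Tumours rich and poor in macrophage RNA were compared within 1 cohort of mouse mammary tumours. Each tumour came from a female mouse that carried the MMTV-PyMT transgene, in which the mouse mammary tumour virus promoter drives polyoma middle T antigen in the mammary epithelium, and that was the offspring of a Diversity Outbred mother. The labels give 1 group only, untreated tumours of this cross, grown until the mouse neared its humane endpoint and snap frozen, and total RNA of whole tumours was read on 133 Affymetrix Mouse Gene 1.0 ST arrays. A mouse of this cross develops tumours in several glands, and the labels do not say which gland an array came from.

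The 2 sets of tumours were chosen by 1 gene, Csf1r, the receptor for CSF1 and IL-34 on which most macrophages depend. The 6 arrays whose animal number has the suffix r and the arrays of 4 animals (14094, 14095, 14312 and 14320) were left out, which left 47 tumours whose titles carry a running number (numbered) and 76 whose titles do not (named), each from a different mouse. For the rule the Csf1r level was centred within each title form. The 31 tumours of highest centred level form the high set (14 numbered, 17 named) and the 31 of lowest the low set (12 numbered, 19 named), and 61 lie between (21 numbered, 40 named). All 3 sets thus share the transgene, the cross, treatment and harvest as labelled, and the sets exist only through Csf1r. The mice of this outbred cross differ in inherited alleles, and whether the sets differ in them was not tested. Levels below are log2 values adjusted for title form, and differences are high minus low in log2 units, so a difference of 1 is a doubling of signal.

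Macrophages of the mammary gland include resident cells that sit in the stroma and fat and cells that derive from blood monocytes. CSF1 and IL-34 sustain both through CSF1R, and the transcription factor PU.1, encoded by Spi1, sets the myeloid programme that includes Csf1r itself. In PyMT tumours macrophages gather in the stroma and are known for growth factor secretion, matrix remodelling and clearance of dead cells, and several activation states have been described for them.

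Csf1r defined the sets, so its values are a description without a test. The centred level ran from 0.33 to 0.94 in the high tumours, with a median of 0.48, and from -1.35 to -0.27 in the low tumours, with a median of -0.54. The last tumour inside the high set stood at 0.3283 and the first outside at 0.3193, and at the other edge the values were -0.2682 inside and -0.2584 outside. The sets are therefore cut from a continuous range and are not separate classes of tumour. In whole tumours, fewer cells of a type and less RNA per cell cannot be told apart.

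The name macrophage rich was checked against 15 other macrophage genes. Of these 14 rose in the high tumours, 0 fell, and the median difference over the list was 0.86, beside -0.02 over all 19937 genes tested. Over all genes 1775 rose (8.9%) and 1362 fell (6.83%), by limma with Benjamini-Hochberg adjustment over all genes. Counted tumour by tumour, a high tumour had between 7 and 15 of the 15 genes above the median of the whole cohort, with a median of 13, and 8 high tumours had all of them. A low tumour had between 0 and 8, with a median of 2, and 7 low tumours had none. The middle tumours lay between, from 1 to 14 with a median of 7. A single tumour in each set crossed over: the low tumour of animal 14182 had 8 of the genes above the cohort median and the high tumour of animal 14122 had 7.

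**Figure D1:**
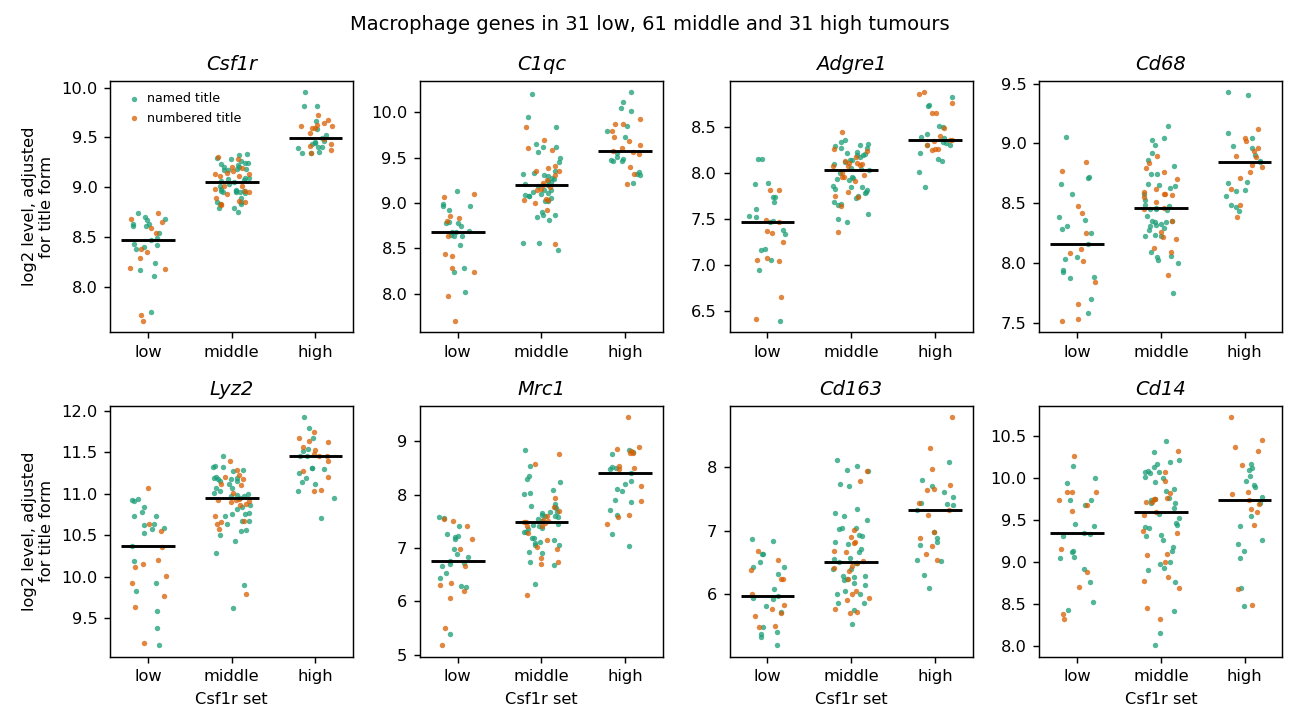
Log2 level, adjusted for title form, of 8 macrophage genes in 31 low, 61 middle and 31 high tumours; points are tumours coloured by title form and bars are medians. Csf1r set the groups, C1qc did not overlap between low and high, and Cd14 overlapped widely (difference 0.32).

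The chains of C1q, the recognition molecule of the classical complement pathway that macrophages secrete, parted the sets most cleanly. C1qc ran from 7.70 to 9.13 in the low tumours (median 8.68) and from 9.21 to 10.22 in the high tumours (median 9.57). Every high tumour thus stood above every low one, with a difference of 1.01 ± 0.08 (SE, limma adjusted p = 3.42e-16). Of all genes tested only 2 (0.01%) had ranges that did not overlap. The other was Selplg, the selectin ligand of leukocytes, chosen here after its values were seen, which ran from 5.93 to 6.846 in the low and from 6.848 to 8.36 in the high tumours, with almost no gap (difference 0.81 ± 0.07, adjusted p = 4.02e-14). C1qa and C1qb came close, with 30 of 31 high tumours above the highest low tumour for each (differences 0.93 ± 0.07 and 0.87 ± 0.07).

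The general macrophage genes followed with wider overlap. Adgre1, which encodes F4/80, ran from 6.40 to 8.15 in the low tumours (median 7.46) and from 7.85 to 8.87 in the high tumours (median 8.35). Its difference was 1.03 ± 0.09 (adjusted p = 2.79e-14), and 27 of 31 high tumours exceeded all low ones. Lyz2, the lysozyme of myeloid cells, had medians of 10.38 and 11.45 and a difference of 1.10 ± 0.11. Cd68, a glycoprotein of the macrophage endosome, separated less well: its range was 7.52 to 9.05 in the low and 8.38 to 9.43 in the high tumours (difference 0.63 ± 0.09, adjusted p = 3.2e-08), and 4 high tumours stood above all low ones. Mertk, a receptor for dead cells, differed by 0.50 ± 0.12 and Fcgr1, the high affinity IgG receptor, by 0.54 ± 0.07. Cd14, the lipopolysaccharide co-receptor, was the member that did not pass, at 0.32 ± 0.14 (adjusted p = 0.115), with ranges of 8.32 to 10.27 and 8.48 to 10.73.

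Mrc1, the mannose receptor, and Cd163, the haemoglobin scavenger receptor, had the largest differences of the list. Mrc1 ran from 5.18 to 7.57 in the low tumours (median 6.76) and from 7.04 to 9.45 in the high tumours (median 8.40), and it rose by 1.53 ± 0.15 (adjusted p = 1.57e-12). Cd163 ran from 5.20 to 6.86 (median 5.97) and from 6.10 to 8.78 (median 7.33), and it rose by 1.22 ± 0.14 (adjusted p = 9.71e-11). In both genes most high tumours stood above every low tumour, 27 of 31 and 22 of 31.

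Promoters of these genes were read for the core of PU.1 sites, since Spi1 rose with them (below). The stretches, from RefSeq on GRCm38.p6, hold 250 bases before and 50 after each start, and capitals mark GAGGAA or its reverse complement TTCCTC. Shown are the gene that parted the sets, C1qc (chr4:136892865-136893164, minus strand), the gene of largest difference in the list, Mrc1 (chr2:14229164-14229463, plus strand), and Cd163 (chr6:124304401-124304700, plus strand), which rose without a match.
C1qc: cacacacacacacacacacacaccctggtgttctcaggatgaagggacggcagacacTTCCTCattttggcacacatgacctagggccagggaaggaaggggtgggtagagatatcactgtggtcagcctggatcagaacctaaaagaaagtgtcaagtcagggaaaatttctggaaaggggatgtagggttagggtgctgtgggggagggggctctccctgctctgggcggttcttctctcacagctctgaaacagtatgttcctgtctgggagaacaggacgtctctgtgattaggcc
Mrc1: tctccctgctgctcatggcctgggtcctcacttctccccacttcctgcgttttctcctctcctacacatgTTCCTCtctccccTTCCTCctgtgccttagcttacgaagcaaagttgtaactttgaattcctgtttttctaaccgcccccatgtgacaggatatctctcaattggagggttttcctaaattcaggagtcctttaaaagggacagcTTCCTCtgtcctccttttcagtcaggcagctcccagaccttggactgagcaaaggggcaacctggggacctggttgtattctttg
Cd163: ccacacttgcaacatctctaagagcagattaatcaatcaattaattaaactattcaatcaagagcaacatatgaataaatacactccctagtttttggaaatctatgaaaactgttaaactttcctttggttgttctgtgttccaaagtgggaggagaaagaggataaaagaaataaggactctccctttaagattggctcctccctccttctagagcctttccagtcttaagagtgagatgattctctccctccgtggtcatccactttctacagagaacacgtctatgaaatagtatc
C1qc held 1 match, Mrc1 3 and Cd163 0. Of the 12 macrophage genes with a promoter given by RefSeq here, 7 held GAGGAA on either strand, and it was present in 28.3% of all 32851 promoters of this length. A gene counted if any of its promoters held the match, while the share is over single promoters, so the 2 are unlike measures. The longer GAGGAAGT, which contains it, was present in 2 of the 12 and in 3.2% of all promoters. A match is a description of the letters and not a site of binding.

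Among the ligands and regulators of the lineage, 12 of 15 tested rose and 1 fell. Both ligands of the receptor were higher: Csf1 ran from 6.65 to 7.65 in the low and from 7.12 to 7.93 in the high tumours (difference 0.36 ± 0.06, adjusted p = 8.68e-07), and Il34 from 5.53 to 6.62 and from 6.05 to 6.85 (0.43 ± 0.06). These shifts were smaller than those of C1qc or Adgre1 on the log2 scale, and the ranges overlapped. Spi1 ran from 5.97 to 7.08 in the low tumours (median 6.55) and from 6.87 to 7.76 in the high tumours (median 7.40), a difference of 0.80 ± 0.06 (adjusted p = 3.14e-16). Irf8 (0.79 ± 0.08), a partner of PU.1, Maf (0.71 ± 0.08), a factor of differentiated macrophages, and the adaptor Tyrobp (0.83 ± 0.08) rose alike. Csf3, the granulocyte growth factor, was the member that fell, by 0.18 on the log2 scale (SE 0.04, adjusted p = 0.00214), and Csf2 stood at -0.08 ± 0.04 (adjusted p = 0.213).

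Genes that handle complement and antibody rose nearly as lists: 10 of 11 complement genes and 5 of 5 Fc receptor genes were higher and 0 were lower. Cfp, which encodes the properdin that stabilises the alternative pathway convertase, rose by 1.07 ± 0.09, C1s1, a serine protease of the C1 complex, by 1.34 ± 0.17, and C3ar1, the C3a receptor, by 0.84 ± 0.10. C4b, at 0.20 ± 0.18 (adjusted p = 0.497), did not pass. With the mean z score of the fibroblast genes as covariate (below), 7 of the 11 complement genes still rose. In that fit C1s1 stood at 0.26 and no longer passed (limma adjusted p = 0.645), while C3ar1 stood at 0.59 (0.0433). The inhibitory Fc receptor Fcgr2b rose by 1.02 ± 0.10 and the activating Fcgr3 and Fcgr4 by 0.81 ± 0.08 and 0.58 ± 0.11, with their shared chain Fcer1g at 0.84 ± 0.08. The Fcgr genes are close paralogs, and cross-reading between their probes was not tested.

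Genes of antigen presentation rose as well. Of 9 MHC class II genes 7 were higher and 0 lower, with a median difference of 0.90. H2-Aa ran from 8.18 to 10.21 in the low tumours (median 9.24) and from 9.91 to 11.23 in the high tumours (median 10.75), and it rose by 1.30 ± 0.11 (adjusted p = 3.45e-14). H2-Ab1 rose by 1.23 ± 0.13, the invariant chain Cd74 by 1.22 ± 0.11, and Ciita, their transactivator, by 0.25 ± 0.05. Dendritic cells and B cells carry these genes too. Of 10 dendritic cell genes 8 rose, with a median of 0.29 and Cd209a at 1.01 ± 0.10, and 0 of 7 B cell genes passed.

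Genes of uptake and digestion rose in part. Of 16 efferocytosis and scavenger genes 9 rose and 0 fell, with a median of 0.35, among them Axl, a receptor for dead cells (0.92 ± 0.07), and Stab1, an endocytic scavenger receptor (0.85 ± 0.06). Of 18 lysosomal genes 12 rose and 0 fell, by a median of 0.17. The exceptions in size were Ctss, the cathepsin of antigen presenting cells (0.86 ± 0.10), Lgmn, legumain (0.66 ± 0.07), and Hexa, a subunit of hexosaminidase (0.65 ± 0.08), against Ctsb, a cathepsin of most cells, at 0.25 ± 0.04. The NADPH oxidase and leukocyte integrin list rose whole, 11 of 11, with Cybb, the catalytic oxidase subunit, at 1.02 ± 0.11 and Itgam, which encodes CD11b, at 0.87 ± 0.08.

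Markers of resident and of monocyte-derived macrophages rose together. The resident list held 10 rises and 0 falls in 12 genes, and its median difference was 0.88. Lyve1, the hyaluronan receptor of perivascular macrophages and lymphatic vessels, ran from 5.92 to 7.48 in the low tumours (median 6.70) and from 6.32 to 9.58 in the high tumours (median 7.94), a rise of 1.25 ± 0.15. Folr2, a folate receptor, rose by 0.92 ± 0.11 and Cd209f, a lectin, by 1.35 ± 0.18. In the monocyte list 6 of 8 rose and 0 fell, with a median of 0.75. Ccr2, the receptor that brings monocytes out of the marrow, ran from 4.81 to 6.40 (median 5.59) and from 5.83 to 7.71 (median 6.74) and rose by 1.15 ± 0.11 (adjusted p = 2.22e-13). Of 13 genes of lipid-associated macrophages 9 rose: Apoe by 0.98 ± 0.08, Trem2, a lipid receptor, by 0.46 ± 0.05, and Gpnmb by 0.68 ± 0.22.

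Genes of alternative and classical activation did not move as wholes. In the alternative list 10 of 15 rose and 1 fell. Retnla, a secreted protein induced by IL-4, ran from 3.56 to 8.10 in the low tumours (median 5.54) and from 4.81 to 10.02 in the high tumours (median 7.80), a rise of 2.40 ± 0.30 (adjusted p = 2.3e-09). The lectin Clec10a ran from 4.42 to 6.46 (median 5.25) and from 5.69 to 8.37 (median 7.07), a rise of 1.72 ± 0.15, and its close paralog Mgl2 rose by 0.89 ± 0.09. Arg1, the arginase often used as a marker of the same state, went the other way. It ran from 6.57 to 11.18 in the low tumours (median 9.09) and from 6.52 to 10.33 in the high tumours (median 8.10), and fell by 0.76 on the log2 scale (SE 0.25, adjusted p = 0.0241). Those Arg1 ranges almost coincide, and without the 2 high tumours that stand apart in B cell genes (below) its adjusted p was 0.0504.

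In the classical list 5 of 14 rose and 0 fell, with a median of 0.06. The 5 were Cxcl9, an interferon gamma induced chemokine (1.01 ± 0.17), Cxcl10 (0.25 ± 0.08), Il1b (0.44 ± 0.13) and the co-stimulatory ligands Cd80 (0.45 ± 0.06) and Cd86 (0.58 ± 0.07). Nos2, the inducible nitric oxide synthase, stood at -0.04 ± 0.05 (adjusted p = 0.676) and Tnf at 0.03 ± 0.08 (adjusted p = 0.809), so neither differed detectably.

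**Figure D2:**
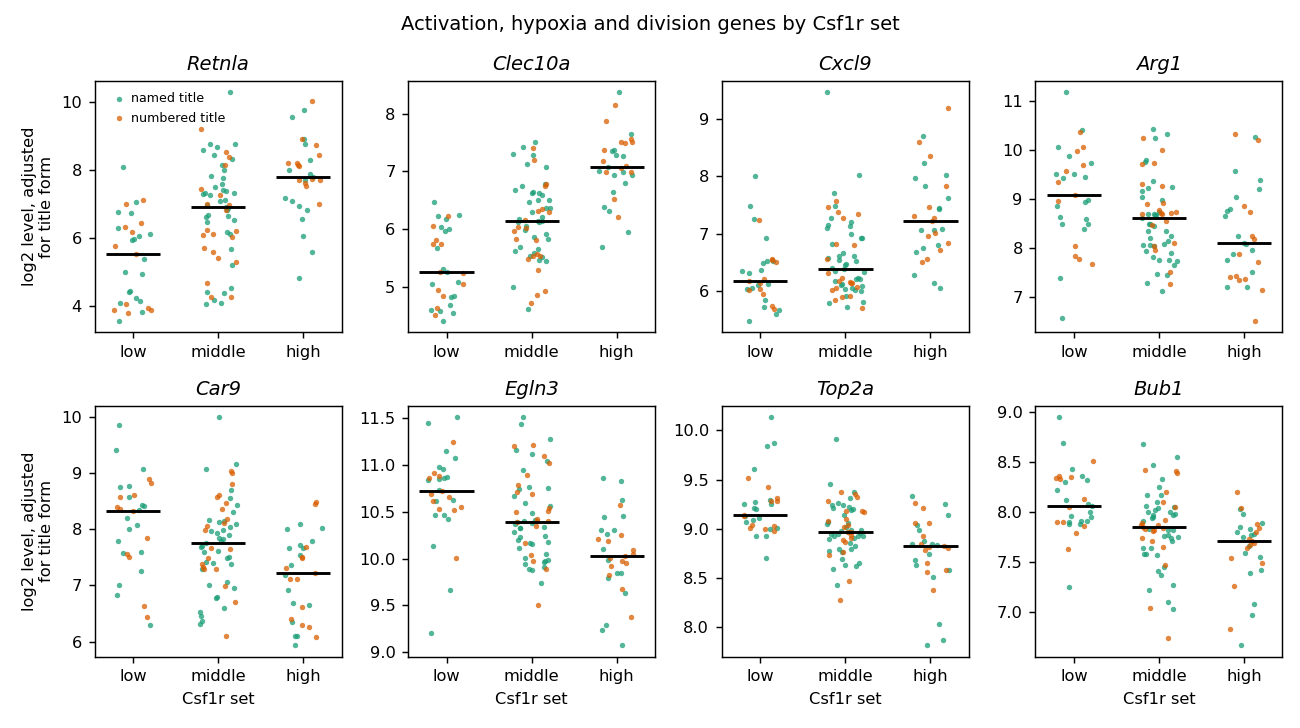
Log2 level, adjusted for title form, of 8 genes of macrophage activation, hypoxia and cell division in low, middle and high tumours; points are tumours coloured by title form and bars are medians. Retnla, Clec10a and Cxcl9 were higher in the high tumours (differences 2.40, 1.72 and 1.01) while Arg1, Car9, Egln3, Top2a and Bub1 were lower.

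Of 22 chemokines and receptors 17 rose and 0 fell. The largest rise was that of Cxcl13, which draws B cells, at 1.89 ± 0.30, with a range of 4.87 to 9.72 in the low and of 5.64 to 11.10 in the high tumours. Ccl8 ran from 5.08 to 7.12 in the low tumours (median 6.01) and from 6.10 to 9.12 in the high tumours (median 7.61), a rise of 1.62 ± 0.17, and Ccl6 rose by 1.59 ± 0.17 and Ccl9 by 0.99 ± 0.11, all of them chemokines that myeloid cells make. Ccl2, which recruits monocytes, rose by only 0.36 ± 0.10. Among inhibitory receptors and ligands 12 of 14 rose, with Siglec1, a sialic acid lectin of macrophages (0.87 ± 0.10), and Pirb, an MHC class I receptor (0.85 ± 0.08), ahead of Cd274, which encodes PD-L1 (0.23 ± 0.07, adjusted p = 0.0191). In the Toll-like receptor list 8 of 14 rose, the endosomal Tlr7 by 0.95 ± 0.09 and Tlr8 by 1.04 ± 0.09, whereas Tlr4 was at 0.08 ± 0.08.

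Growth factors and matrix enzymes gave 8 rises and 1 fall in 17 genes. Igf1 (1.30 ± 0.13), a growth factor, and Mmp2 (1.07 ± 0.13), a gelatinase, rose most, with Mmp19 (0.96 ± 0.11) and Mmp14 (0.58 ± 0.11). The fall was that of Vegfa, the angiogenic factor, at -0.46 ± 0.15 (adjusted p = 0.0291). Endothelial genes all rose, 10 of 10, with a median of 0.53 and Pecam1 at 0.72 ± 0.07, but with the mean z score of the fibroblast genes as covariate 0 of the 10 passed and the median was 0.26. With that score Mmp2 (-0.09) and Mmp14 (-0.05) changed sign, as did Vegfa (0.17), and 1 of the 17 growth factor and matrix genes passed as higher.

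**Figure D3:**
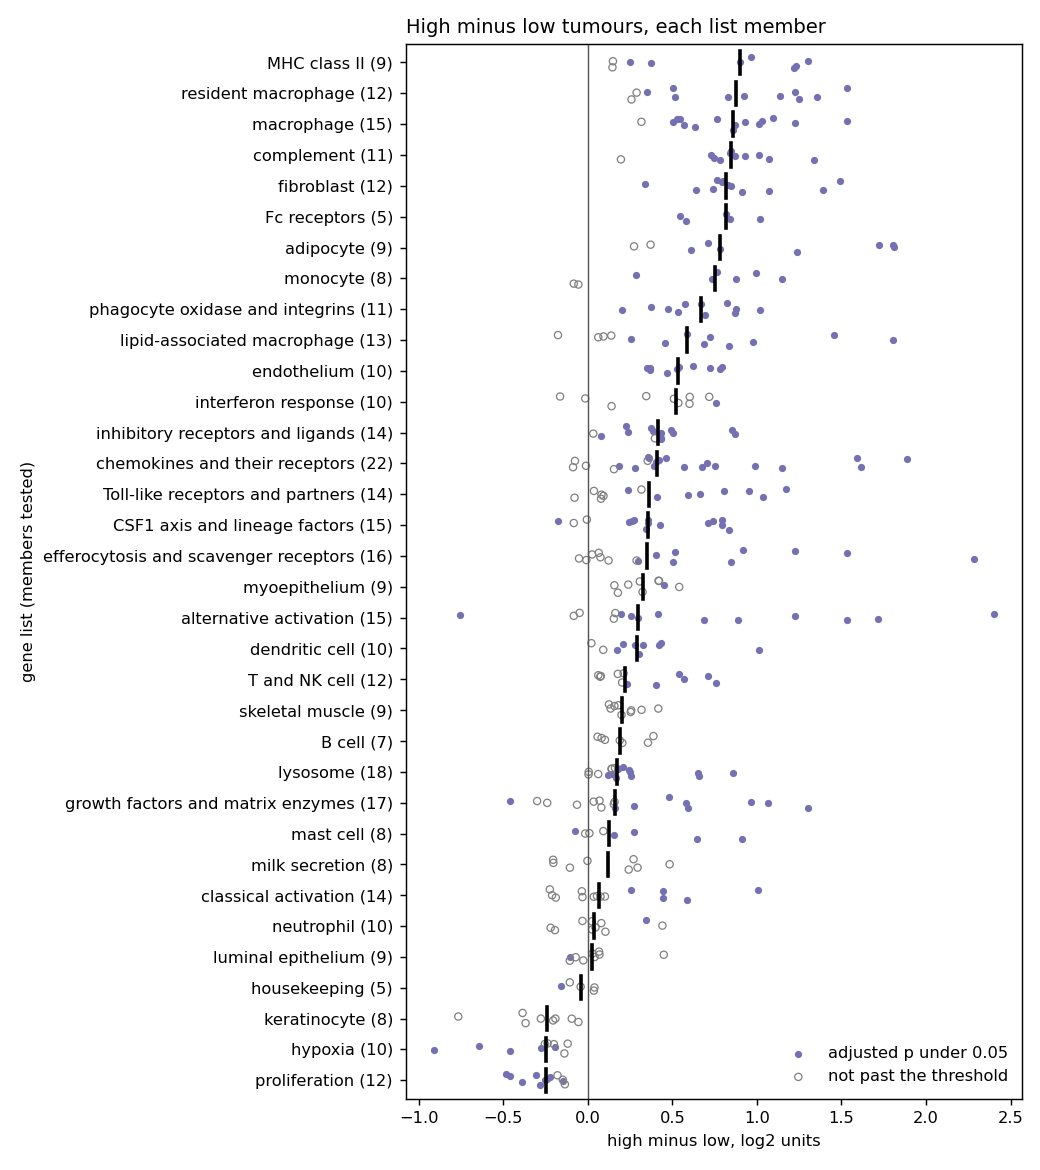
Difference between high and low tumours in log2 units for each tested member of 34 gene lists; filled points passed an adjusted p of 0.05, open points did not, and black bars are list medians. The MHC class II, macrophage, fibroblast and adipocyte lists lie to the right, and the proliferation and hypoxia lists to the left.

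Stromal and fat genes moved with the sets by amounts close to those of the macrophage genes. All 12 fibroblast genes rose, with a median of 0.82, and the mean level of the list ran from 7.44 to 9.19 in the low tumours and from 8.65 to 9.79 in the high tumours. Dcn, which encodes decorin, rose by 1.39 ± 0.17 and Lum, lumican, by 1.49 ± 0.18. Among 9 adipocyte genes there were 7 rises, and the list mean ran from 6.34 to 9.63 in the low and from 6.39 to 10.17 in the high tumours, so the ranges nearly coincided while the medians were 6.68 and 7.95. Of 12 T and NK cell genes 6 rose, with Nkg7 at 0.76 ± 0.13, Cd4 at 0.54 ± 0.11 and Cd3e at 0.40 ± 0.10, and of 8 mast cell genes 4 rose, led by Cpa3 (0.91 ± 0.13), and Ms4a2 fell by 0.08 on the log2 scale, a call lost in 26 of the 62 fits that left out a tumour. In the neutrophil list 1 of 10 rose, Csf3r (0.34 ± 0.05), which monocytes also carry. Among luminal epithelial genes 0 of 9 rose, with differences from -0.11 to 0.45 and Krt8 at 0.07 ± 0.07, though with C1qb ranking 3 rose and 2 fell (backgrounds 14.0% and 18.3%). Esrp1, a splicing factor of epithelia, fell by 0.11 on the log2 scale (SE 0.04, adjusted p = 0.0287, and 0.0505 without the high tumour of animal 13973). Of the 9 myoepithelial genes 1 rose, Myh11 (0.45 ± 0.16), whose call was lost in 28 of the 62 fits that left out a tumour, and of the 5 housekeeping genes 1 fell, Tbp (-0.16 ± 0.04). The milk secretion, keratinocyte and skeletal muscle lists held 0 calls in 8, 8 and 9 genes.

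How much of the contrast went along with stroma was read from fits that held the fibroblast score, the mean z score of the 12 genes, as a further covariate. The calls over all genes then numbered 342 (295 higher, 47 lower) in place of 3137, and 280 of them were among the earlier calls. Of the 15 macrophage genes 12 still rose (background 1.48% higher), with a median of 0.60, as did 7 of 11 complement genes, 4 of 5 Fc receptor genes, 9 of 11 oxidase and integrin genes and 4 of 9 MHC class II genes. C1qc stood at 0.78 (adjusted p = 3.08e-05), Adgre1 at 0.61 and H2-Aa at 1.09. Other lists also lost calls. The fibroblast genes themselves rose in the high tumours, so a call lost in this fit does not show that the difference went away. The counts of rises went from 17 to 4 for chemokines and receptors, from 12 to 8 for ligands and regulators of the lineage, from 12 to 6 for inhibitory receptors, from 12 to 4 for lysosomal genes, from 10 to 4 for alternative activation and from 10 to 0 for endothelium. They went from 9 to 3 for efferocytosis and scavenger genes, from 9 to 4 for lipid-associated genes, from 8 to 5 for Toll-like receptors, from 8 to 3 for dendritic cells and from 8 to 1 for growth factors and matrix enzymes. For adipocytes they went from 7 to 0, for monocytes from 6 to 2, for T and NK cells from 6 to 3, for classical activation from 5 to 3 and for mast cells from 4 to 0. The list medians changed little for chemokines (0.41 without and 0.41 with the score), lysosomal genes (0.17 and 0.17), inhibitory receptors (0.41 and 0.39) and dendritic cells (0.29 and 0.27). They were larger with the score for T and NK cells (0.22 and 0.37) and classical activation (0.06 and 0.10). They were smaller for the other lists just named, for example monocytes (0.75 and 0.19) and endothelium (0.53 and 0.26). The resident list kept 1 of its 10 rises, Mrc1 (0.74, adjusted p = 0.044), and Lyve1 (0.70, adjusted p = 0.111) and Cd163 (0.58, adjusted p = 0.133) no longer passed. With the adipocyte score in its place the macrophage list kept 14 rises and the resident list 10 (background 5.81% higher).

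The largest differences of all belonged to fat and stroma. Of the 12 genes that rose most, Car3, the carbonic anhydrase of fat and muscle (3.28 ± 0.48), Cd36 (2.28 ± 0.34), Retn (1.96 ± 0.36), Cidec (1.81 ± 0.30), Fabp4 (1.80 ± 0.30), Adipoq (1.72 ± 0.30) and Cyp2e1 (1.72 ± 0.37) are abundant in adipocytes. Dpt, dermatopontin (2.61 ± 0.26), and Efemp1, a fibulin (2.03 ± 0.20), belong to the matrix, and Retnla, Cxcl13 and the interferon-inducible Ifi205 (2.01 ± 0.19) complete them. These genes overlapped in different degrees: Adipoq ran from 4.72 to 9.53 in the low and from 5.31 to 10.28 in the high tumours with 3 high tumours above all low ones, while Dpt ran from 4.82 to 9.30 and from 8.43 to 11.04 with 23. With the fibroblast score as covariate Efemp1 alone of the 12 passed (1.01, adjusted p = 0.0425), although Car3 stood at 1.54 and Retnla at 1.37. With the adipocyte score, which itself holds Adipoq, Cidec and Fabp4, 7 of the other 9 passed, among them Dpt (2.02), Cxcl13 (1.83), Car3 (1.74), Ifi205 (1.67) and Retnla (1.62), and Retn (0.45, adjusted p = 0.0862) and Cyp2e1 (0.28, adjusted p = 0.578) did not.

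**Figure D4:**
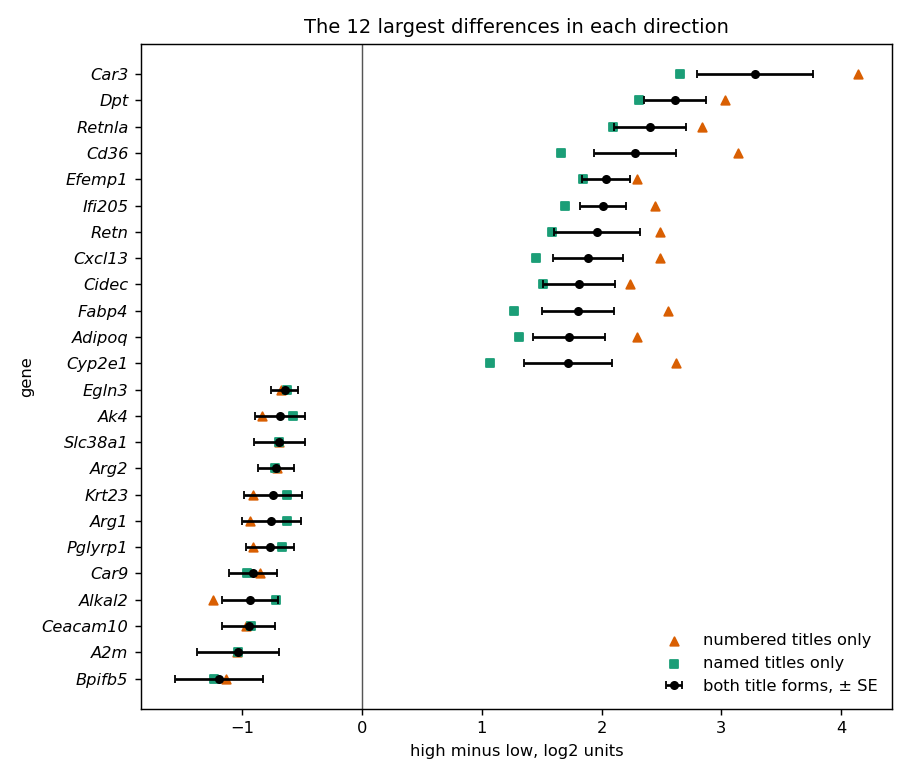
High minus low difference in log2 units for the 12 genes of largest rise and the 12 of largest fall that kept their sign in both title forms; black points with bars are the estimate ± SE over 62 tumours, triangles the numbered and squares the named titles fitted alone. All 12 rises were larger in numbered than in named titles, for example 4.14 against 2.66 for Car3.

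Genes lower in macrophage rich tumours included several that oxygen shortage induces. Of 10 hypoxia genes 5 fell and 0 rose: Car9, Egln3, Vegfa, Pdk1 (-0.28 ± 0.09) and Ankrd37 (-0.20 ± 0.07). The call of Ankrd37 was lost in 16 of the 62 fits that left out a tumour and without the 2 tumours that stand apart in B cell genes (adjusted p = 0.0572), and the number of hypoxia genes that fell ran from 4 to 6 over the 62 fits. Car9, a carbonic anhydrase at the cell surface, ran from 6.30 to 9.85 in the low tumours (median 8.32) and from 5.93 to 8.49 in the high tumours (median 7.22), and fell by 0.91 on the log2 scale (SE 0.20, adjusted p = 0.000435). Egln3, a prolyl hydroxylase of the HIF pathway, ran from 9.20 to 11.51 (median 10.72) and from 9.07 to 10.86 (median 10.03), a fall of 0.65 on the log2 scale (SE 0.11, adjusted p = 1.1e-05). The ranges overlapped in both genes, and 7 high tumours stood above the cohort median of Car9 beside 21 low ones. Ak4, an adenylate kinase that hypoxia is known to induce (-0.69 ± 0.21), stood among the 12 largest falls beside them.

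The promoter of Car9 (RefSeq, GRCm38.p6, chr4:43506776-43507075, plus strand, 250 bases before to 50 after the start) is shown because it led the hypoxia list, with ACGTG, a core to which HIF binds, or its reverse complement CACGT in capitals.
Car9: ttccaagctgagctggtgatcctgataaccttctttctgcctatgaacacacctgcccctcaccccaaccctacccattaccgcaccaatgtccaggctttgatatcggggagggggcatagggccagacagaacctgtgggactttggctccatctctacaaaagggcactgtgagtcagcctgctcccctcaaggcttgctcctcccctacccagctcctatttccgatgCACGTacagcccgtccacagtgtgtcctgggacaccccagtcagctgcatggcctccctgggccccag
It held 1 match, which began at -18 from the start. Of the 9 hypoxia genes with a promoter given there, 7 held ACGTG on either strand in any promoter, and 19.6% of all single promoters did, an unlike measure.

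Genes of cell division fell by small amounts. In the proliferation list 9 of 12 members fell and 0 rose, and the median difference was -0.25. Bub1, a checkpoint kinase, ran from 7.25 to 8.95 in the low tumours (median 8.06) and from 6.66 to 8.20 in the high tumours (median 7.71), and fell by 0.49 on the log2 scale (SE 0.09, adjusted p = 1.25e-05). Top2a, a topoisomerase, had medians of 9.14 and 8.83 (-0.46 ± 0.09) and Mki67, which encodes Ki-67, of 9.88 and 9.61 (-0.31 ± 0.07). With the fibroblast score as covariate 0 proliferation and 0 hypoxia genes passed as lower, and with the adipocyte score 4 and 2 did (backgrounds 0.236% and 2.45% lower). The estimates with the fibroblast score varied by gene: Car9 stood at -0.79 (adjusted p = 0.241), Top2a at -0.35 and Bub1 at -0.33, whereas Mki67 stood at -0.10, Egln3 at -0.10 and Vegfa at 0.17. When tumours were ranked by C1qb in place of Csf1r, 6 hypoxia genes and 1 proliferation gene fell (background 18.3% lower).

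The remaining large falls had mixed origins. Bpifb5 (-1.19 ± 0.37), A2m, a protease inhibitor (-1.04 ± 0.34), Ceacam10 (-0.95 ± 0.22), Alkal2, a ligand of the receptor ALK (-0.94 ± 0.24), Pglyrp1, a peptidoglycan binding protein (-0.77 ± 0.20), Krt23, an epithelial keratin (-0.74 ± 0.24), and Slc38a1, a glutamine transporter (-0.69 ± 0.21), were lower. Bpifb5 ran from 6.07 to 11.83 in the low and from 5.71 to 9.99 in the high tumours. The mitochondrial arginase Arg2 fell as Arg1 did, by 0.72 on the log2 scale (SE 0.15, adjusted p = 0.000303), with medians of 7.80 and 6.98. With the fibroblast score as covariate none of these falls passed, though the estimates of Bpifb5 (-1.78), A2m (-1.80), Ceacam10 (-1.21) and Alkal2 (-1.18) were larger in size than without it. Arg2 stood at -0.61, Krt23 at -0.45 and Pglyrp1 at -0.03. Without the 2 high tumours that stand apart in B cell genes the adjusted p of Krt23 was 0.0522.

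The middle tumours, which neither set used, gave a reading in other mice. Across these 61 tumours 25 genes (0.125%) rose with the Csf1r level and 0 fell (limma slope per log2 unit; 888 and 764 at an unadjusted p under 0.05). Of the 25, 24 had also risen between the sets. The 11 that belong to a list were C1qa, C1qc, C1ra, Adgre1, Mrc1, Axl, Stab1, F13a1, Pf4, Sirpa and Plau, receptors or secreted products of macrophages for the most part. The rest of the 25, more than these 11, belong to no list and are not described here. The lists were chosen with earlier results of these data known, so the 11 do not describe the 25 as a whole. The slope was 1.15 for C1qc (adjusted p = 0.0172), 1.73 for Mrc1 (adjusted p = 0.0264) and 0.83 for Axl (adjusted p = 0.00173). All 15 macrophage, all 12 fibroblast and all 9 adipocyte genes had slopes above 0, compared with 43.2% of all genes, though 0 of the last 2 lists passed. All 11 complement and all 5 Fc receptor genes did so too. Not every list went along. Of 9 MHC class II genes 6 had slopes above 0, with a median slope of only 0.05, and 0 passed. For T and NK cells it was 8 of 12 (median 0.08), for B cells 1 of 7 (-0.13) and for neutrophils 4 of 10 (-0.04). Of the genes that had risen between the sets 93.7% had a slope above 0 here, and of those that had fallen 93.6% had one below 0. Slopes above 0 were found for 3 of 10 hypoxia genes and 1 of 12 proliferation genes, and 0 of either list passed.

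Numbered and named titles gave the same signs where fitted alone for all 24 genes of largest difference, as their choice required. Alone, the numbered titles gave 1736 calls and the named titles 1337, and 13 of 15 macrophage genes rose in each (backgrounds 5.91% and 4.68% higher). A test of the difference between title forms called 0 genes (824, or 4.13%, at an unadjusted p under 0.05), although 7 of 9 adipocyte genes rose in numbered titles (median 1.09) and 2 of 9 in named titles (median 0.76). Of the 12 largest rises 9 passed in named titles, and Fabp4 (adjusted p = 0.0662), Retn (0.0559) and Cyp2e1 (0.208) did not. The array median over the 19938 genes kept ran from 6.69 to 6.87 in numbered and from 6.38 to 6.65 in named titles. These ranges did not overlap, so the 2 forms differed in level over these genes. The median over all deposited probesets was not taken, and the labels do not say whether the forms are batches.

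Other properties of the arrays moved with the sets. The array median over the genes kept was 0.0605 higher in high than in low tumours (permutation p = 1e-05, the smallest the 100000 resamples can give). It was 0.0551 higher in numbered and 0.0649 higher in named titles. With the array median as a covariate 1126 genes passed. The mean correlation of an array with the others was 0.978 in the high and 0.975 in the low tumours (permutation p = 0.0641). It ran from 0.970 to 0.983 in the high and from 0.953 to 0.981 in the low tumours, so the least typical arrays were low ones. The low tumour of animal 14352 had the lowest correlation and the lowest array median (6.38) of both sets. Without it 1728 genes rose and 1387 fell. Whether a low Csf1r level went along with array quality was not tested further. Among the high tumours 2 stood apart in B cell genes, with list means of 7.65 and 7.16 beside 5.12 in the next, and without them 2894 genes passed (8.42% higher), 14 of 15 macrophage genes among them, T and NK cell genes kept 6 rises and Cxcl13 stood at 1.71. With the mean z score of the T and NK cell genes as covariate 2246 genes passed (1407 higher, 839 lower). In that fit 14 of 15 macrophage genes rose, and rises of dendritic cell genes went from 8 to 3. Falls went from 5 to 1 for hypoxia and from 9 to 5 for proliferation, and Car9 stood at -0.57 (limma adjusted p = 0.0789). With the array median Bub1 stood at -0.28 (limma adjusted p = 0.119) and Car9 at -1.17 (0.00154). The part of fat, stroma, lymphoid cells and array level in these differences was not tested beyond the values given.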

How the data were processed

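Total RNA of 133 PyMT mammary tumours was read on Mouse Gene 1.0 ST arrays, and the authors deposited log2 values made by RMA, a method that subtracts background, quantile normalizes and summarises probes. Array medians over the genes kept differed between title forms. Whether all deposited probesets share 1 distribution over all arrays was not tested. The version of RMA is not given in the sources used here. RMA gives no detection call, read depth does not apply to arrays, and the number of tumours limits precision. Diversity Outbred alleles can differ from the probes, which can change signal between mice. Of 35556 probesets 21789 named 1 gene, 1621 named several and 12146 were unnamed; the single-gene probeset of highest mean was kept, which gave 19938 genes, and Csf1r was left out of tests.

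High and low tumours (31 each) were compared by limma (version 3.58.1, run in R 4.3.3), whose linear models held title form as a covariate and whose moderated variances followed a trend on mean level, 2-sided, Benjamini-Hochberg over 19937 genes and a threshold of 0.05. Slopes in the middle tumours and the interaction with title form used the same model, and array-wide values a permutation test of 100000 resamples within title form. Levels in the text were centred within title form and the mean of the tumours used was added. Each tumour was of a different mouse. The text names the 12 largest differences in each direction with the same sign in both title forms, members of 34 gene lists, and genes said to be chosen after their values were seen. Members and lists were chosen with earlier results of these data known, so lists have counts and medians but no test. The comparison of high with low tumours was also run on simulated data in which genes varied independently and no gene chose the sets. That run checks the calculation only and does not bear on variation shared between genes. Promoters came from RefSeq GRCm38.p6.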

Additional observations from a re-analysis of the deposited data

How the results depend on the processing

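The number of genes past the threshold between high and low tumours, 3137, became 6432 when tumours were ranked by C1qb (22 high and 21 low tumours shared, 1 crossed), 1736 in numbered titles, 1337 in named titles, 1126 with the array median as covariate, 342 with the fibroblast score, 1646 with the adipocyte score and 284 with both scores, the last 2 chosen after seeing the data. It stayed within 1.5 times under the others: 2150 without title form, 4600 by slope over all tumours, 2317 among genes above the median level, and 2924 to 3443 when each of the 62 tumours was left out in turn. The share of calls that were higher, 56.6%, was 43.6% with a further quantile normalization, 43.3% by C1qb, 73.5% without title form, 76% over all tumours with the arrays of an animal averaged, 67.9% and 69.9% in numbered and named titles, 71.4% with the array median, 86.3% with the fibroblast, 70.4% with the adipocyte and 87% with both scores, so the balance of rises and falls depends on these choices. The 25 rises and 0 falls in the middle tumours became 82 rises and 23 falls after quantile normalization, 2527 and 3634 by slope on C1qb, 11 rises without title form, and 33 rises with 1 fall among genes above the median level. The difference in mean correlation passed with C1qb ranking (0.00373).

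Of 135 genes named, some changed sign, and the cause was not tested. With the fibroblast score these were Ak4 (0.47), C4b (-0.19), Nos2 (0.13), Tnf (-0.01), Mmp2 (-0.09), Vegfa (0.17), Pdk1 (0.07), Ankrd37 (0.14) and Mmp14 (-0.05). With both scores they were Pglyrp1 (0.01), Ak4 (0.54), C4b (-0.27), Nos2 (0.11), Tnf (-0.0), Mmp2 (-0.07), Vegfa (0.17), Tek (-0.04), Myh11 (-0.01), Pdk1 (0.03), Ankrd37 (0.15), Mmp14 (-0.0) and Birc5 (0.01). In numbered titles Nos2 was at 0.01 and Tnf at -0.11, and with the array median C4b was at -0.07 and Tnf at -0.11. In the leave-one-out fits 6 of the 135 changed their side of the threshold in any, and the macrophage list kept 14 rises in all 62. No paired analysis was possible because the labels hold 1 group.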

Other observations

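Interferon response genes are described here because their count of rises depended on the fit. Of 10 genes 1 rose between low and high tumours, a share near the 8.9% of all genes that rose. It was Oasl2, a member of the oligoadenylate synthetase family (0.76 ± 0.26, limma adjusted p = 0.0384). The list median was 0.52, and the number of rises ran from 0 to 4 when each tumour was left out in turn. Without the 2 tumours that stand apart in B cell genes the adjusted p of Oasl2 was 0.0598. The list mean ran from 6.22 to 10.28 in the low and from 6.35 to 9.60 in the high tumours. With the fibroblast score as covariate 7 of 10 rose, with a median of 1.59, beside 1.48% of all genes higher, and with C1qb ranking 6 rose (background 14.0% higher). In the middle tumours all 10 slopes on Csf1r were above 0 and 0 passed.

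Some lists reached high values in single tumours of either set. The skeletal muscle list had a mean of 9.97 in the high tumour of animal 14090 and 8.04 in the next, beside a median of 5.76 in the high set, and 0 of its 9 genes passed. Keratinocyte genes reached 8.73 in a low and 8.28 in a high tumour, beside medians of 5.37 and 5.38. That high tumour was of animal 14122, which had 7 macrophage genes above the cohort median, the fewest within the high set.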
